A study of Mus musculus with 8 samples.

Results

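The interferon receptor chains, the JAK kinases that they bind, Stat3 and the SOCS feedback inhibitors Socs1 and Socs3 were followed in IEC10 cells, an immortalized intestinal epithelial cell line, by their array signal. The members are 10 genes, taken by the gene name that the array files give: Il28ra (now also named Ifnlr1), Il10rb, Ifnar1, Ifnar2, Jak1, Jak2, Tyk2, Stat3, Socs1 and Socs3. They have 13 probes among the 39429 probes and 31791 gene names of the array, with 3 probes for Ifnar1, 2 for Stat3 and 1 for each of the other genes. All groups share this single line, so that no other donor or clone stands behind the values. Its donor mouse was transgenic, with the Mx2 promoter driving firefly luciferase. Cells were polarized for 21 days on transwell inserts. They were then left untreated (control, 2 arrays), exposed to 20 ng/mL IFN-λ2 for 9 h (3 arrays) or exposed to 500 U/mL IFN-β for 9 h (3 arrays). The doses are in different units, and each cytokine was given at 1 dose and 1 time. The labels do not say whether the arrays of a group came from separate cultures, so p-values measure the spread between these arrays, which may be technical.

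Type I interferons such as IFN-β bind a receptor made of IFNAR1 and IFNAR2, and type III interferons such as IFN-λ2 bind a receptor made of IL-28Rα and IL-10Rβ. Both receptors engage JAK kinases, which phosphorylate STAT proteins. A complex that holds STAT2 and IRF9 then binds the interferon-stimulated response element (ISRE) in target promoters. SOCS1 and SOCS3 bind JAK kinases or their receptors and limit the signal. The type III receptor is known for its restriction to epithelia and few other cells. The arrays therefore allow the question of whether 9 h of either cytokine changed the transcripts of its own receptor, its kinases or its inhibitors.

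All 13 probes were well above background on all 8 arrays, none was saturated, and all 13 were among the 25972 probes that entered the test. Signals are given in array units, in which the 75th percentile of each array was set to 1500 and values below 15 were set to 15. Levels of different probes are not compared, since probes differ in how well they bind. Of 10 markers of intestinal epithelium, 8 were well above background on all arrays, and Cdx2, a transcription factor of the intestine, was not well above background on any. The summed signal of the epithelial markers was 361668 to 371020 units on the control arrays, 387148 to 414967 with IFN-β and 463074 to 486301 with IFN-λ2. Krt18, at 200127 to 246496 units, and Krt20, at 81248 to 150032 units, carry most of it, while Vil1 was at 62.3 and 65.5 units on the control arrays, 52.9 to 67.9 with IFN-λ2 and 40.3 to 57.0 with IFN-β, and Cdx1 was at 123 and 15 units on the control arrays and at 16.7 to 23.8 units on the treated ones. Of 6 immune cell genes, 3 were well above background on all arrays, and the list summed to 10806 to 13054 units on the control arrays, 6306 to 7830 with IFN-λ2 and 6539 to 14779 with IFN-β. This sum rests mostly on Cd14, at 3427 to 4633 units on all arrays, and on 1 of 3 Itgam probes, which ranged from 2115 to 10737 units. For 5 fibroblast genes the sums stayed between 76.3 and 95.3 units on all arrays, and Col3a1, Pdgfra and Pdgfrb were well above background on none. Of 3 endothelial genes, 1 was well above background on all arrays and Cdh5 on none, and the list summed to 909 to 1161 units on the control arrays, 1211 to 1364 with IFN-λ2 and 1036 to 1102 with IFN-β. Here 1 Kdr probe gave 95.8 and 164 units on the control arrays, 377 to 403 with IFN-λ2 and 114 to 164 with IFN-β, while the other stayed between 757 and 955 units. Each sum is weighted to its brightest probes and is compared only between arrays. The part of these shifts in the results below was not tested.

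Socs1 was the member that rose with both cytokines, and Socs3 the member that fell with IFN-λ2. Against the control, limma called 1 member probe higher (Socs1) and 1 lower (Socs3) with IFN-λ2 at an adjusted p under 0.05. Over all tested probes, 10% were called higher and 8.55% lower in this comparison. With IFN-β, limma called 1 member probe higher (Socs1) and none lower, while 2 member probes, Socs1 and Socs3, had an unadjusted p under 0.05. Here 1.44% of all tested probes were called higher and 0.208% lower. Between the cytokines, limma called 1 member probe, Socs3, which was lower with IFN-λ2, whereas 5.53% of all tested probes were called higher and 5.68% lower. A 2-fold limit left Socs1 in both comparisons with the control, where it kept 3.86% (IFN-λ2) and 0.913% (IFN-β) of all probes, and it left no member between the cytokines, where it kept 2.21%. Both comparisons with the control share the same 2 control arrays.

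**Figure D1:**
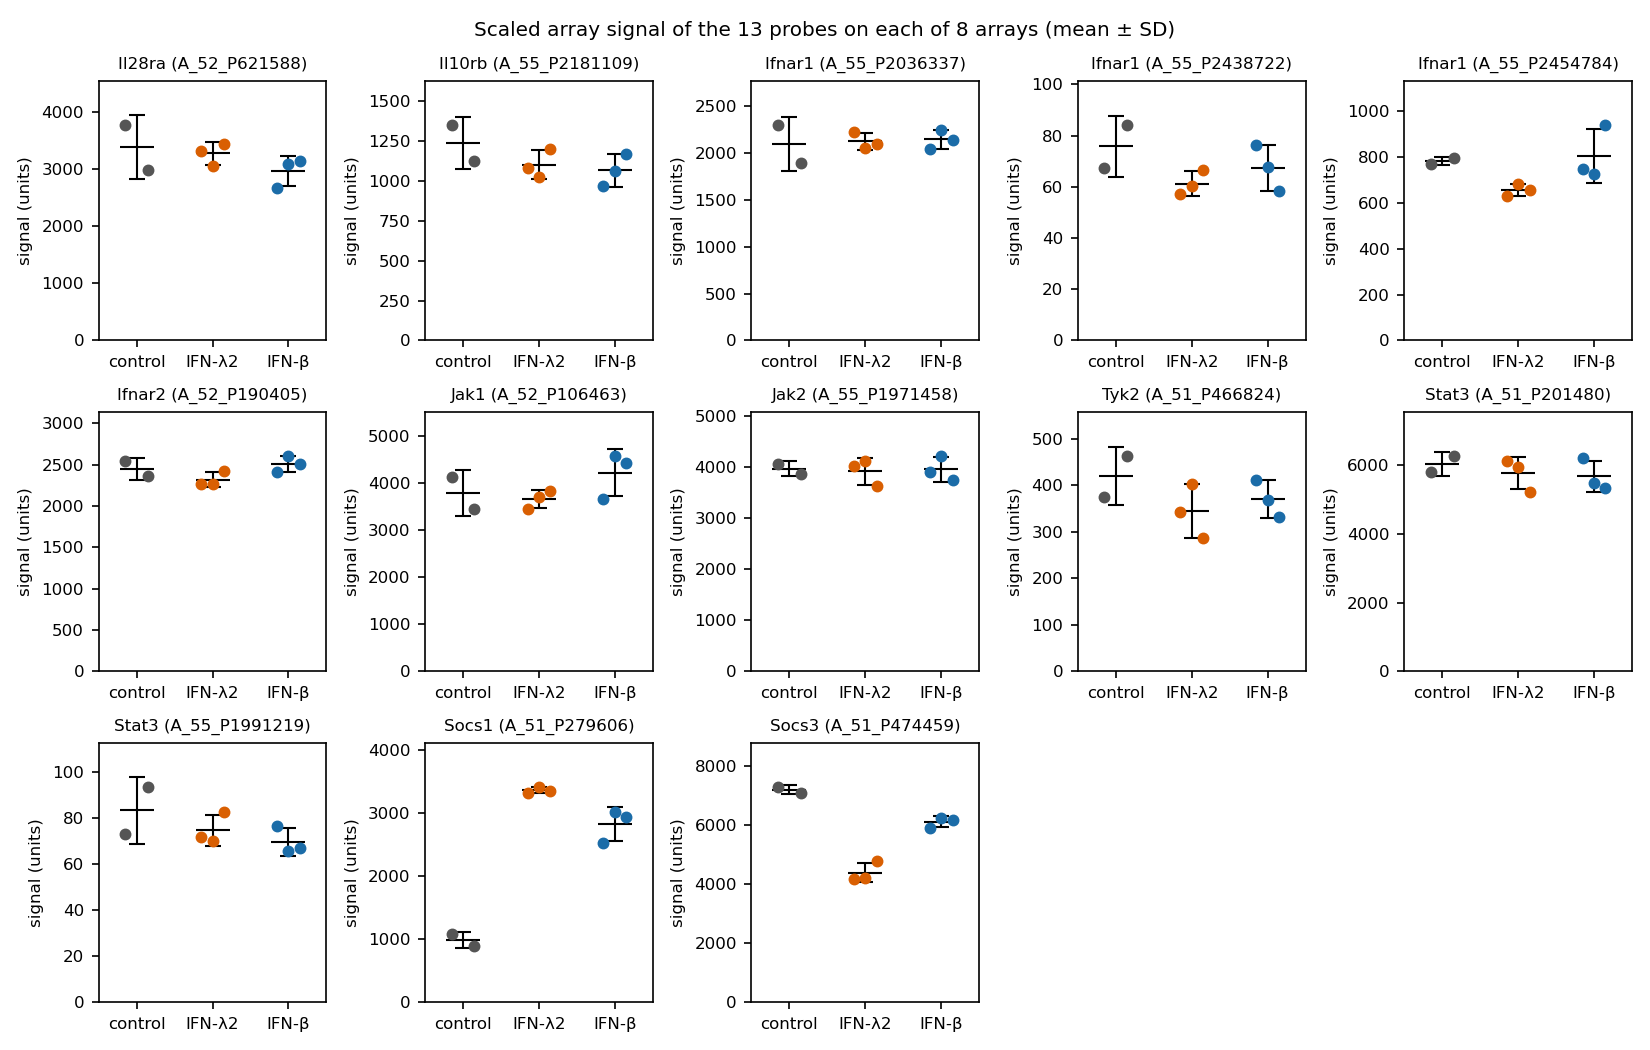
Signal in array units of each of the 13 member probes on the 2 control, 3 IFN-λ2 and 3 IFN-β arrays. Points are arrays and bars show the mean ± SD. For Socs1 all treated arrays lie above both control arrays, and for Socs3 all treated arrays lie below them, while the points of most other probes overlap.

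SOCS1 is a suppressor that docks on JAK kinases and dampens interferon signals. Its probe A_51_P279606 lies at chr16:10783951-10784010 on mm9, on the minus strand, and its first 30 of 60 bases, shown because all Socs1 values below rest on this single probe, are
Socs1 probe start: gagggtctctggcttcatttttctgctgtg
The Socs1 signal was 1083 and 903 units on control replicates 2 and 3. With IFN-λ2 it was 3330, 3425 and 3355 units on replicates 1, 2 and 3, and with IFN-β it was 2525, 3017 and 2946 units. The groups did not overlap, with the control lowest, IFN-β between and IFN-λ2 highest. The means were 993 ± 127 units (SD, n = 2) for the control, 3370 ± 49.1 (SD, n = 3) for IFN-λ2 and 2829 ± 266 (SD, n = 3) for IFN-β. On the log2 scale Socs1 rose by 1.77 with IFN-λ2 (SE 0.11, 3.41-fold, adjusted p = 0.00012 by limma). With IFN-β it rose by 1.51 (SE 0.11, 2.85-fold, adjusted p = 0.000458 by limma), a call that the methods' t-test did not make (adjusted p = 0.144). The difference between the cytokines was 0.26 on the log2 scale (95% CI 0.02 to 0.49), and it did not pass the test (adjusted p = 0.164 by limma), although every IFN-λ2 array lay above every IFN-β array.

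Arrays with the same replicate number shared a slide. Within slides 2 and 3, which hold all 3 groups, the Socs1 log2 difference from the control was 1.66 and 1.89 for IFN-λ2 but 1.48 and 1.71 for IFN-β. Within slides 1, 2 and 3 the difference between IFN-λ2 and IFN-β was 0.40, 0.18 and 0.19. IFN-λ2 was thus higher on 3 of 3 slides. Such agreement was also seen for member probes that were not called. Jak1 (-0.08, -0.30 and -0.21), Ifnar2 (-0.09, -0.20 and -0.05) and Ifnar1 probe A_55_P2454784 (-0.24, -0.09 and -0.52) were lower with IFN-λ2 on 3 of 3 slides. Each group always took the same position on the slide, so position and treatment cannot be told apart.

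SOCS3 is a related suppressor that acts mainly on the gp130 family of cytokine receptors and is itself a known target of STAT3. Its probe A_51_P474459 lies at chr11:117827480-117827539 on mm9, on the minus strand, and its first 30 of 60 bases, shown for the same reason as those of Socs1, are
Socs3 probe start: ccttcgaggctgtctgaagatgcttgaaaa
The Socs3 signal was 7293 and 7078 units on control replicates 2 and 3. It was 4186, 4210 and 4771 units on the IFN-λ2 arrays and 5900, 6236 and 6182 units on the IFN-β arrays. The groups did not overlap here either, but in the opposite order, with the control highest and IFN-λ2 lowest. The means were 7186 ± 152 units (SD, n = 2) for the control, 4389 ± 331 (SD, n = 3) for IFN-λ2 and 6106 ± 181 (SD, n = 3) for IFN-β. With IFN-λ2, Socs3 fell by 0.71 on the log2 scale (SE 0.08, 95% CI of the change -0.91 to -0.52, adjusted p = 0.00179 by limma), which is 1.64-fold lower. With IFN-β the log2 change was -0.24 (95% CI -0.43 to -0.04), which did not pass the test (adjusted p = 0.32 by limma), although all 3 arrays lay below both control arrays.

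Socs3 also differed between the cytokines. The log2 difference of IFN-λ2 from IFN-β was -0.48 (SE 0.07, 95% CI -0.65 to -0.30, adjusted p = 0.00869 by limma), which is 1.39-fold. Within slides 1, 2 and 3 this difference was -0.50, -0.57 and -0.37, lower on 3 of 3 slides. Within slides 2 and 3 the difference from the control was -0.79 and -0.57 for IFN-λ2 but -0.23 and -0.20 for IFN-β. In these cultures fewer cells that carry a transcript and less of it per cell cannot be told apart, for Socs3 as for the other genes.

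**Figure D2:**
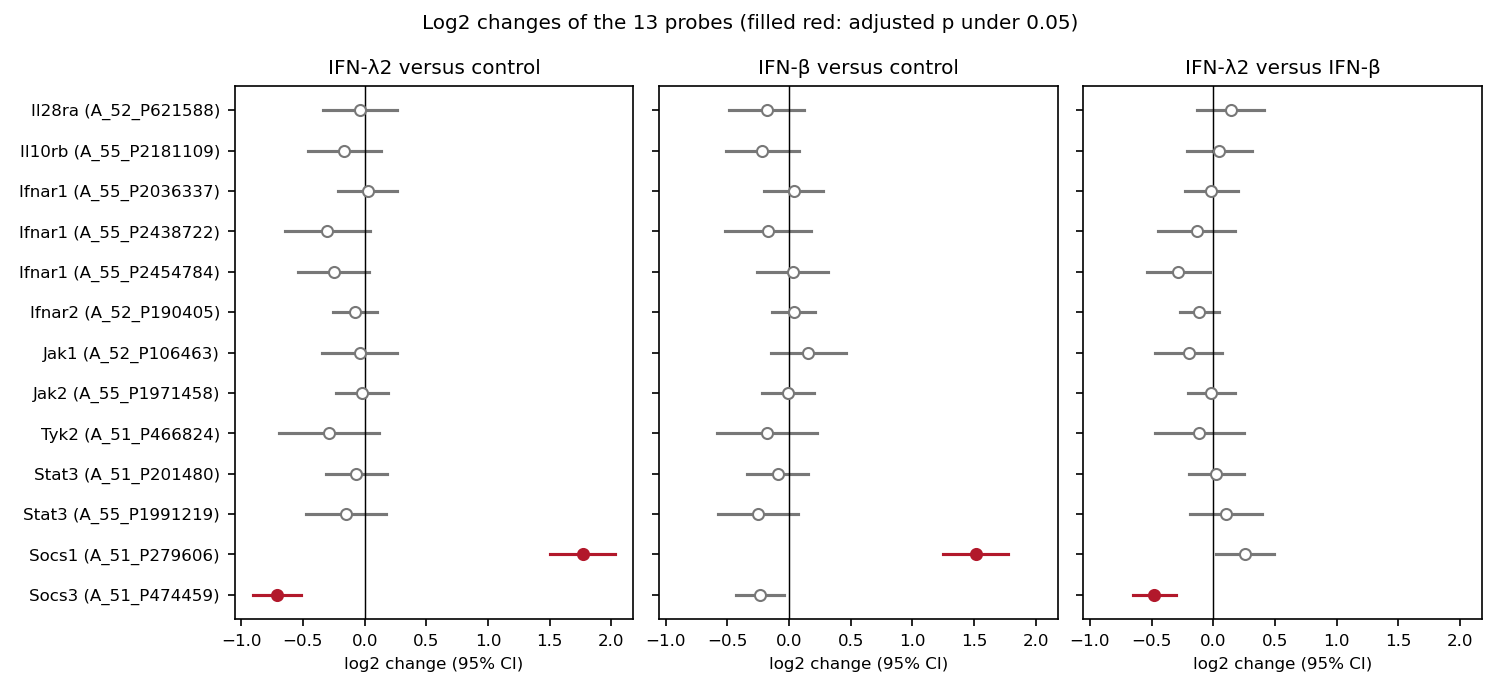
Log2 change of each member probe in the 3 comparisons, with points at the limma estimate and lines for the 95% confidence interval. Filled red points have an adjusted p under 0.05: Socs1 at 1.77 and 1.51 against the control, and Socs3 at -0.71 against the control and -0.48 between the cytokines.

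The promoters of both SOCS genes are shown because these 2 members moved. The 200 bases before the transcription start are from RefSeq on GRCm38.p6, both on the minus strand, with motif matches in capitals. The Socs1 stretch is chr16:10785537-10785736 and the Socs3 stretch is chr11:117969367-117969566. Capitals mark the ISRE core in Socs1 and the core of the gamma-activated site (GAS), which STAT dimers bind, in Socs3.
Socs1 promoter: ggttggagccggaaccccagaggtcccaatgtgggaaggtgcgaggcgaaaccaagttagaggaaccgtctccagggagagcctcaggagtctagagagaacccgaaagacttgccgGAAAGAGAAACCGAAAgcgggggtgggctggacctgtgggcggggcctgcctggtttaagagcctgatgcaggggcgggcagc
Socs3 promoter: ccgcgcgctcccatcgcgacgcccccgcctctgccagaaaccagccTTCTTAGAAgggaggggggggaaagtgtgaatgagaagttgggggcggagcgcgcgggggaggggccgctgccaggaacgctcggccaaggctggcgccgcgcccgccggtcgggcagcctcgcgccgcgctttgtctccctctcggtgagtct
The ISRE core was searched on both strands as GAAA, any 2 bases and GAAA again, and the GAS core as TTCNNNGAA, which reads the same on both strands. The window ran from 250 bases before to 50 bases after the start. Socs1 had 2 ISRE core matches, starting 83 and 77 bases before the start, which overlap each other, and no GAS core match. Socs3 had 1 GAS core match, starting 154 bases before the start, and no ISRE core match. Over the 32851 promoter windows of the table, 3.44% held the ISRE core and 8.30% the GAS core.

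Of the 10 members, 9 have a promoter in the table, and Il10rb has no entry. Ifnar2 had a GAS core match starting 214 bases before the start, and Ifnar1 had one that starts 5 bases before it and runs across it. Il28ra, Jak1, Jak2, Tyk2 and Stat3 had a match to neither core. These matches describe letters in the windows and were not tested for binding.

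**Figure D3:**
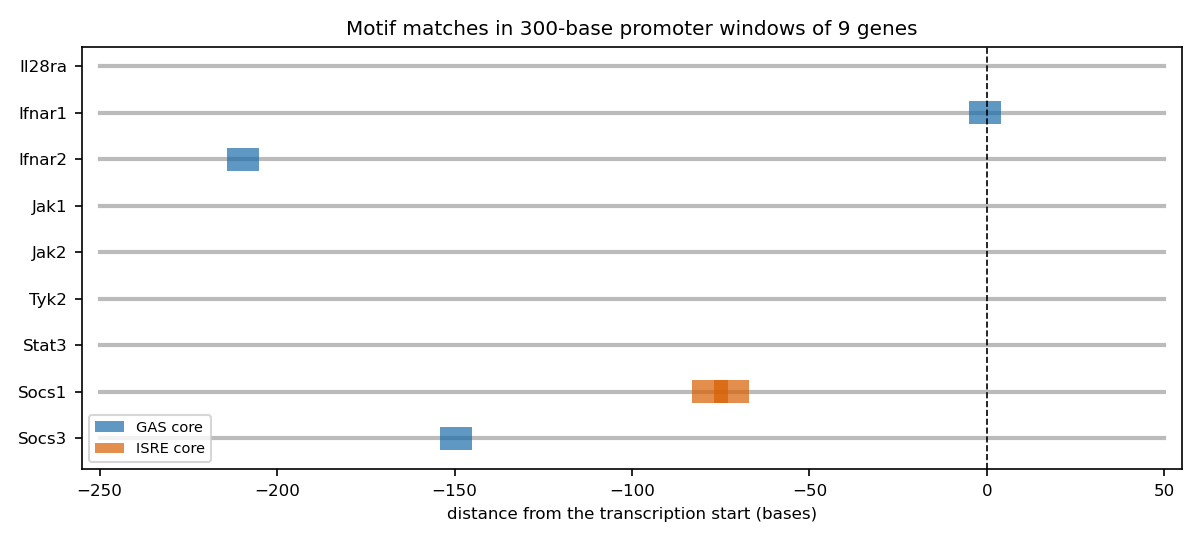
Matches to the ISRE core (orange) and the GAS core (blue) in the promoter windows of the 9 members in the table, by distance in bases from the transcription start (dashed line). The 2 overlapping ISRE core matches of Socs1 lie 83 and 77 bases before the start, and the GAS core match of Socs3 lies 154 bases before it.

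None of the receptor chains passed the test in any of the 3 comparisons. IL-28Rα is the chain particular to the IFN-λ receptor. The Il28ra probe A_52_P621588 lies at chr4:135263946-135264005 on mm9, on the plus strand, and its first 30 of 60 bases, shown because it is the only probe for this chain, are
Il28ra probe start: tatacgtcttacgtgtttgtattacctgtc
Its signal was 3786 and 2990 units on the control arrays, 3329, 3057 and 3453 units with IFN-λ2, and 2676, 3099 and 3151 units with IFN-β. The groups overlapped, and the 2 control arrays differed from each other by more than the group means did. The log2 change was -0.04 with IFN-λ2 (95% CI -0.34 to 0.26) and -0.18 with IFN-β (95% CI -0.48 to 0.12), and the difference between the cytokines was 0.14 (95% CI -0.13 to 0.41). The adjusted p from limma was 0.865, 0.638 and 0.496. These intervals do not show equal levels, but they leave out a 1.5-fold change in either direction.

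IL-10Rβ is the second chain of the IFN-λ receptor and is shared with the receptors of IL-10 and IL-22. Its probe at chr16:91425744-91425803 gave 1355 and 1126 units on the control arrays, 1024 to 1203 units with IFN-λ2 and 967 to 1173 units with IFN-β. The groups overlapped. The log2 change was -0.17 with IFN-λ2 (95% CI -0.46 to 0.13) and -0.21 with IFN-β (95% CI -0.51 to 0.08).

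IFNAR1 and IFNAR2 form the IFN-β receptor. The brightest Ifnar1 probe, A_55_P2036337 at chr16:91510673-91510732, gave 2301 and 1890 units on the control arrays, 2048 to 2220 units with IFN-λ2 and 2045 to 2248 units with IFN-β, with log2 changes of 0.02 (95% CI -0.22 to 0.26) and 0.04 (95% CI -0.20 to 0.28). The treated arrays lay inside the range of the control arrays. The Ifnar2 probe at chr16:91394044-91394103 gave 2540 and 2358 units on the control arrays, 2269 to 2421 units with IFN-λ2 and 2417 to 2609 units with IFN-β. Its log2 change was -0.08 with IFN-λ2 (95% CI -0.25 to 0.10) and 0.04 with IFN-β (95% CI -0.14 to 0.21).

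The other 2 Ifnar1 probes were not called either, and their intervals overlap with those of the brightest one. Probe A_55_P2454784 at chr16:91506635-91506693 gave 769 and 793 units on the control arrays, 630, 682 and 655 units with IFN-λ2, and 745, 724 and 940 units with IFN-β. All IFN-λ2 arrays lay below the arrays of both other groups. The log2 change with IFN-λ2 was -0.25 (95% CI -0.54 to 0.03, adjusted p = 0.195 by limma), and the difference between the cytokines was -0.28 (95% CI -0.54 to -0.03, adjusted p = 0.158), so neither was called. Probe A_55_P2438722 is dim, with 57.1 to 84.2 units over all 8 arrays, and its mm9 coordinates, chr16:91503764-91505350, span far more than the length of a probe. Its log2 change with IFN-λ2 was -0.30 (95% CI -0.65 to 0.05), with all 3 arrays below both control arrays, and with normexp background correction, another way to remove background signal, this change turned to 0.13.

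Among the kinases no change was called in any comparison. JAK1 serves both receptors together with TYK2, and JAK2 serves other cytokine receptors such as that of interferon-γ. The Jak1 probe at chr4:100825094-100825153 gave 4134 and 3443 units on the control arrays, 3462 to 3840 units with IFN-λ2 and 3659 to 4587 units with IFN-β. Its log2 change was -0.04 with IFN-λ2 (95% CI -0.34 to 0.26) and 0.16 with IFN-β (95% CI -0.15 to 0.46). The Jak2 probe at chr19:29387487-29387546 stayed between 3627 and 4231 units on all 8 arrays. Its log2 changes were -0.02 (95% CI -0.23 to 0.19) with IFN-λ2 and -0.0046 (95% CI -0.22 to 0.21) with IFN-β. The Tyk2 probe at chr9:20909321-20909380 gave 375 and 463 units on the control arrays, 287 to 403 units with IFN-λ2 and 331 to 411 units with IFN-β. Its intervals were wider, with log2 changes of -0.29 (95% CI -0.70 to 0.11) and -0.18 (95% CI -0.58 to 0.23).

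STAT3 is activated by IL-6 and IL-10 family cytokines and, to a lesser degree, by interferons. Its main probe, A_51_P201480 at chr11:100749598-100749657, is printed 10 times on each array, of which 8 or 9 copies were kept, and the coefficient of variation between copies was 0.889% to 4.33%. The signal was 5800 and 6285 units on the control arrays, 6138, 5950 and 5239 units with IFN-λ2, and 6204, 5502 and 5332 units with IFN-β. The groups overlapped, and the arrays of a group differed by more than the copies on 1 array. The log2 change was -0.07 with IFN-λ2 (95% CI -0.32 to 0.18) and -0.09 with IFN-β (95% CI -0.34 to 0.16). The other Stat3 probe, A_55_P1991219 at chr11:100759946-100760005, was dim, at 65.6 to 93.7 units, with log2 changes of -0.15 (95% CI -0.47 to 0.18) and -0.25 (95% CI -0.57 to 0.07).

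As a group, the 13 member probes had a median absolute log2 change of 0.15 with IFN-λ2, where that of all tested probes was 0.22. With IFN-β the values were 0.17 and 0.12, and between the cytokines 0.11 and 0.16. The median signed change of the members was -0.08, -0.09 and -0.02 in the same order, and that of all tested probes was 0.0010, 0.02 and -0.02. The median SE over all tested probes was 0.12 against the control and 0.11 between the cytokines.

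The other genes of JAK-STAT signaling were taken as a list of receptors, kinases, STATs, inhibitors and ligands: 44 genes with 61 probes, of which 37 genes with 53 probes were tested. With IFN-λ2, limma called 5 probes of 5 genes higher and 7 probes of 4 genes lower, against the 10% and 8.55% of all tested probes. The split turned to 7 higher and 1 lower with normexp, and to 4 higher and 1 lower with the methods' t-test. With IFN-β it called 4 probes higher and 1 lower, against 1.44% and 0.208% of all tested probes. Between the cytokines it called 1 higher and 4 lower with IFN-λ2, against 5.53% and 5.68%. The list's median log2 change was -0.07 with IFN-λ2, -0.01 with IFN-β and -0.06 between the cytokines.

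Stat2 and Irf9, which encode parts of the complex that binds the ISRE, rose with both cytokines. Stat2 went from 2754 and 2201 units to between 10570 and 11658 units with IFN-λ2 and between 7569 and 9048 units with IFN-β, log2 changes of 2.16 and 1.73 (SE 0.12 for both). Irf9 went from 6476 and 6024 units to between 24373 and 25479 units with IFN-λ2 and between 23089 and 24399 units with IFN-β, log2 changes of 1.99 and 1.93 (SE 0.07 for both). For both genes all treated arrays lay above the control arrays, and the adjusted p from limma was at most 0.000392. The methods' t-test did not call Stat2 with IFN-β (adjusted p = 0.134). The difference between the cytokines was not called for either gene. For Stat2 it was 0.43 (95% CI 0.17 to 0.69, adjusted p = 0.0525 by limma), with every IFN-λ2 array above every IFN-β array. Stat2 has 1 ISRE core match in its promoter window, starting 222 bases before the start, and Irf9 has none in either of its 2 windows.

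Usp18, which encodes an enzyme that removes ISG15 and docks on IFNAR2 to dampen its signal, had the largest change of the list with either cytokine. It was at 4771 and 3541 units on the control arrays, 54658 to 57408 units with IFN-λ2 and 46391 to 50859 units with IFN-β. The log2 change was 3.77 (SE 0.13, adjusted p = 5.52e-06 by limma) with IFN-λ2 and 3.57 (SE 0.13, adjusted p = 1.13e-05) with IFN-β, where the methods' t-test did not call it (adjusted p = 0.0519). The difference between the cytokines was 0.20 (95% CI -0.07 to 0.47).

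Ifnb1, which encodes IFN-β itself, rose with IFN-λ2 from a dim level. Its probe gave 38.6 and 33.8 units on the control arrays, 125, 190 and 134 units with IFN-λ2, and 52.3, 51.0 and 84.4 units with IFN-β. The groups did not overlap, and all 8 arrays were well above background. The log2 change was 2.03 with IFN-λ2 (SE 0.27, adjusted p = 0.00317 by limma) and 0.75 with IFN-β (SE 0.27, adjusted p = 0.329). The difference between the cytokines, 1.27 (SE 0.24), was called (adjusted p = 0.0174 by limma), but it was lost without IFN-β replicate 1 (1.16, adjusted p = 0.0532), with no filter on dim probes (adjusted p = 0.0595) and with the methods' t-test (adjusted p = 0.098). The methods' t-test also ended the call against the control (adjusted p = 0.0549), and normexp brought that change to 1.29 with the call kept.

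Of 26 tested probes of the other negative regulators, 3 were called lower with IFN-λ2, 1 was called higher and 22 were not called, against the 8.55% lower and 10% higher of all tested probes, so the count is near the background. The lower ones were both probes of Pias3 and 1 of 3 probes of Socs2, a further suppressor of cytokine signaling. Socs2 is named after its values were seen. Its called probe, A_55_P1992838, had a log2 change of -0.42 (adjusted p = 0.0198 by limma). Socs2 probes A_51_P107362 and A_55_P1992834 changed by -0.49 and -0.43 and were not called (adjusted p = 0.12 and 0.102 by limma). With IFN-β no Socs2 probe was called, with log2 changes of -0.28, -0.35 and -0.28 in the same order. Pias3 encodes an inhibitor of activated STAT3, and both of its probes fell. The brighter, A_55_P2034828, was at 198 and 244 units on the control arrays, 106 to 123 units with IFN-λ2 and 184 to 212 units with IFN-β. Its log2 change was -0.93 with IFN-λ2 (SE 0.12, adjusted p = 0.00319 by limma) and -0.17 with IFN-β (adjusted p = 0.638), and the log2 difference of IFN-λ2 from IFN-β was -0.75 (SE 0.11, adjusted p = 0.00707). The dim probe, A_51_P152167, was well above background on 2 of 3 IFN-λ2 arrays and gave -1.15 and -0.93 for IFN-λ2 against the control and against IFN-β. With normexp background correction neither probe was called: the brighter gave -0.52 and -0.37 and the dim one -0.25 and -0.07 for IFN-λ2 against the control and against IFN-β. The methods' t-test called neither with IFN-λ2 (adjusted p 0.0695 and 0.0941), and with a floor of 50 units the dim probe was not called between the cytokines (-0.28, adjusted p = 0.191).

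Stat6, the STAT of IL-4 signaling, fell with IFN-λ2 at 2 of its 3 probes. Probe A_52_P114494 was at 804 and 861 units on the control arrays, 494 to 541 units with IFN-λ2 and 588 to 626 units with IFN-β. Its log2 change was -0.67 with IFN-λ2 (SE 0.08, adjusted p = 0.00171 by limma) and -0.46 with IFN-β (SE 0.08, adjusted p = 0.0371). The second call was lost under 12 of 20 alternatives, with the replicate block among them (-0.48, adjusted p = 0.138) and with any one of the 8 arrays left out (adjusted p 0.056 to 0.194). Probe A_65_P00601 gave -0.85 with IFN-λ2 (SE 0.17, adjusted p = 0.0158) and was not called with normexp background correction (-0.39, adjusted p = 0.142), by the methods' t-test (adjusted p = 0.0977), without control replicate 3 (-0.63, adjusted p = 0.0818) or without IFN-λ2 replicate 1 (-0.82, adjusted p = 0.0559). The third probe lay at or near the lower limit of 15 units on all arrays.

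Lifr, the receptor of leukemia inhibitory factor, gave mixed probes. A_55_P2159259 was at 358 and 394 units on the control arrays, 269 to 274 units with IFN-λ2 and 370 to 415 units with IFN-β. Its log2 change was -0.46 with IFN-λ2 (SE 0.08, adjusted p = 0.00896 by limma), and the log2 difference of IFN-λ2 from IFN-β was -0.53 (SE 0.07, adjusted p = 0.00522). The first call was lost without control replicate 3 (-0.39, adjusted p = 0.0553), with normexp (-0.33, adjusted p = 0.173) and at the threshold itself with the methods' t-test (adjusted p = 0.05). The second was lost with normexp (-0.36, adjusted p = 0.134). The dim probe A_51_P113182 was well above background on 2 of 3 IFN-λ2 arrays. It gave -0.63 with IFN-λ2 (adjusted p = 0.0496) and -0.09 with normexp, the call was lost under 16 of 20 alternatives, and the replicate block brought its difference between the cytokines, -0.50, to an adjusted p of 0.0336 from 0.0968. The third probe, A_55_P2159264, was not called, with a log2 change of 0.16 with IFN-λ2.

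**Figure D4:**
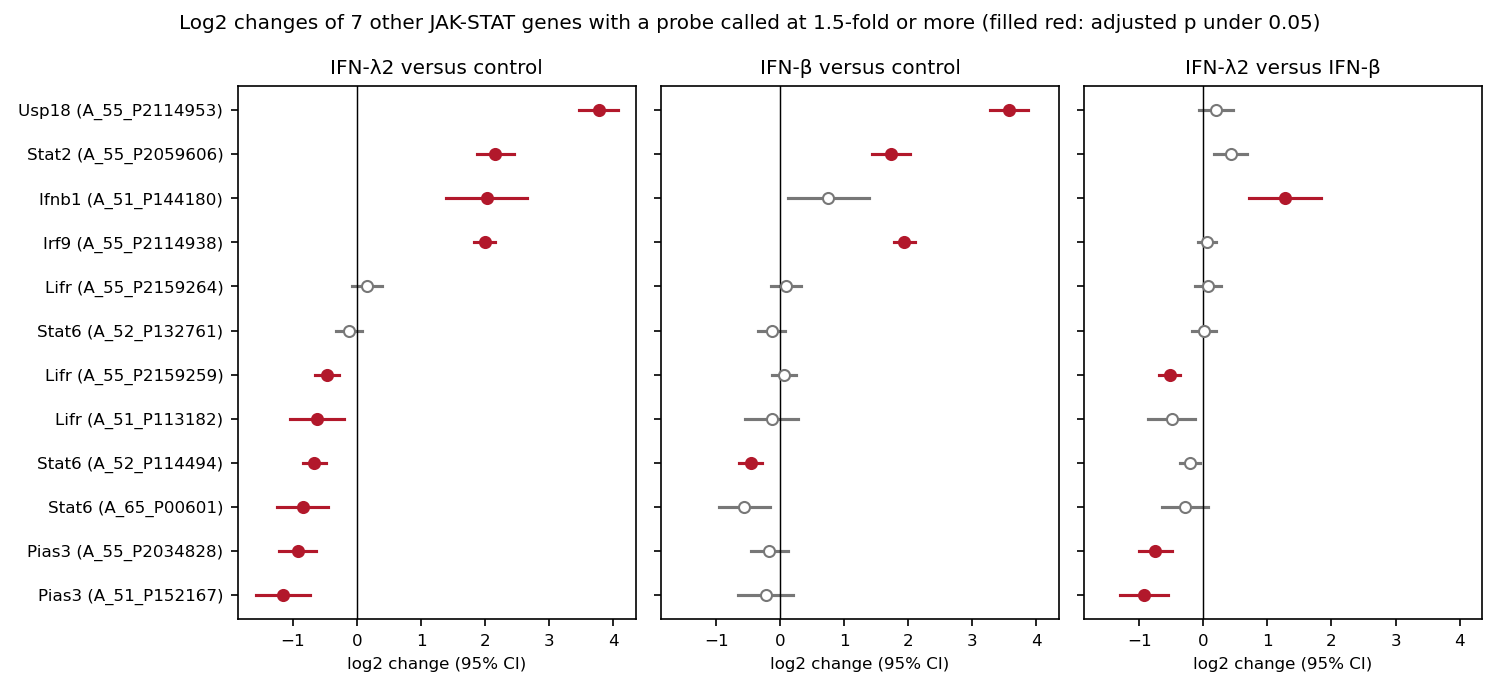
Log2 change of every probe of 7 other JAK-STAT genes that had a probe called with a change of at least 1.5-fold, in the 3 comparisons, with 95% confidence intervals. Filled red points have an adjusted p under 0.05. Usp18, Stat2 and Irf9 lie far right of 0 with both cytokines, while Ifnb1, Pias3 and 1 probe of Lifr are called in the comparison of the cytokines.

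For Il28ra, Stat3 and Socs1, the gene names whose signal followed that of the member most closely over the 8 arrays were listed among 20247 probes well above background on all arrays. These are the highest of many correlations over 8 arrays that share the same scaling, and they are given as a description. For Socs1 they were LOC633219 (Pearson r = 0.998), ENSMUST00000098351 (0.998), Trim30a (0.996), Apol9b (0.996) and Trim34a (0.995). Trim30a had log2 changes of 4.41 (IFN-λ2) and 3.96 (IFN-β), Apol9b of 4.66 and 3.87, and Trim34a of 2.51 and 2.23, so these rose by more than Socs1 in the same order of groups. LOC633219 had log2 changes of 0.30 and 0.25 only. For Il28ra they were Cdc14b (0.994), Mast2 (0.992), Evi5 (0.981), Igsf5 (0.978) and Fem1b (0.976), and for Stat3 they were Tmem201 (0.978), Tbc1d4 (0.975), Ppig (0.972), Mfsd6 (0.968) and Slc35f3 (0.963). The log2 changes of these 10 genes lay between -0.21 and -0.01 (IFN-λ2) and between -0.26 and -0.09 (IFN-β).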

How the data were processed

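The members and gene lists were chosen with earlier results of these data known. Genes named from the JAK-STAT list are those with a probe called in any comparison and changed there by at least 1.5-fold, with Socs2 added after its values were seen, and the 5 gene names most alike are given for Il28ra, Stat3 and Socs1. A gene of the list is counted in the list's totals and is not reported here by name.

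The scanner output is from 1-color Agilent arrays (Feature Extraction 10.7.3.1), for which the authors deposited the background-subtracted intensity of each feature, before scaling between arrays. Their deposited table of processed intensities differs from the values here by a constant ratio of 0.909 to 0.928 per array and served as an alternative; the median of its columns was 51.4 to 55.9 units. Control features and 313 to 424 flagged, outlying or uneven features per array (outside 1.42 times the interquartile range of their copies, or pixel variation above 0.5) were left out. Copies of a probe were averaged geometrically, and each array was multiplied to bring its 75th percentile to 1500 (factors 0.691 to 0.769), with 15 as the lowest value, and taken to log2. The test covered 25972 of 39429 probes, those exceeding 15 on at least 2 arrays. The number of arrays limits the precision. The median difference between replicates was 0.09 to 0.16 in log2 units, and in the 7 pairs of arrays of the same group no probe above the floor on both arrays had the same value.

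The means of the 3 groups of all 8 arrays entered 1 fit in limma (version 3.58.1, R 4.3.3) with Benjamini-Hochberg adjustment over all tested probes at 0.05. In tests on simulated data with 25972 probes, 200 of them were shifted. Values are given for IFN-λ2 and IFN-β against the control and between the cytokines, in this order. Limma recovered 91%, 90% and 97% of shifts of 2 on the log2 scale, and 73%, 77% and 83% of shifts of 1. It recovered 0% of shifts of 0.5. False calls were 9, 6 and 10 at shifts of 2, and 8, 11 and 13 at shifts of 1. On the arrays limma called 4824, 428 and 2912 probes, more than the 200 shifted. The adjusted threshold therefore differs, and these shares do not give the recovery on the arrays. Python 3.11.15 with pandas 2.3.3, numpy 2.4.6 and matplotlib 3.10.9 served for tables and figures. Probe coordinates come from the array files (mm9), and promoters are those of RefSeq on GRCm38.p6. Exon and untranslated region annotation of the probes was not used here.

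Slides and replicate numbers coincide. Deviations of same-numbered arrays from their group means correlated at 0.178, 0.255 and 0.297 between IFN-λ2 and IFN-β, so the numbers pair these groups, at 0.0010 and -0.01 between control and IFN-λ2, and at 0.101 and -0.06 between control and IFN-β. The block was an alternative, as were normexp background correction (offset 50), a floor of 50 or none, quantile normalization, other probe filters, the deposited table, no exclusion of features, a variance trend, the methods' t-test, the compared groups alone, a 2-fold limit and leaving out each array.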

Additional observations from a re-analysis of the deposited data

How the results depend on the processing

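Of 780 recomputed log2 changes of member probes (39 changes under 20 alternatives), 779 stayed on the same side of the threshold, 0 reversed a call, and 33 changed sign while called in neither. The exception was Socs1 with IFN-β under the methods' t-test (1.51, adjusted p = 0.144), so that this test called 0 member probes there, with 2 at an unadjusted p under 0.05. The adjusted p of Socs3 reached 0.0498 with IFN-λ2 and 0.0421 between the cytokines at its highest. With the 2-fold limit the members called were 1 with IFN-λ2 and 0 between the cytokines. The replicate block left the number of member probes called at 2, 1 and 1 and changed no member's call. Leaving out 1 array at a time gave 2, 1 and 1 throughout.

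For the other JAK-STAT probes, the methods' t-test called 5 with IFN-λ2, 1 with IFN-β and 3 between the cytokines, where limma called 12, 5 and 5. Over all probes the share called fell as well, from 18.6% to 6.26%, from 1.65% to 0.388% and from 11.2% to 6.8%. The 2-fold limit left 6 with IFN-λ2 and 1 between the cytokines. Between the cytokines, normexp called 2 and no filter on dim probes called 3 (5.36% and 6.04% of all probes), and leaving out 1 array gave 3 to 5, lowest without IFN-β replicate 1. Left-out arrays gave 8 to 12 with IFN-λ2 and 4 with IFN-β. The replicate block gave 11, 4 and 6, and 13%, 1.01% and 8.37% of all probes. Of 705 recomputed changes of the named genes, 647 stayed on their side of the threshold, 49 lost a call, 9 gained one and 0 reversed a call. Stat2 between the cytokines was called under 8 of 20 alternatives. Normexp moved the median of all probes with IFN-λ2 to 0.11 on the log2 scale and the share of higher calls from 54% to 70.4% with IFN-λ2, from 87.4% to 97.8% with IFN-β and from 49.3% to 71.9% between the cytokines. The cause of these shifts was not tested.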
